A study of Mus musculus with 8 samples.

Results

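The genes described here encode the ligands of the TGFβ superfamily, the receptors that bind them, the secreted and membrane-bound antagonists, the proteins that store or process the latent ligands, and the intracellular proteins that set the strength of the signal. The rule named 46 genes by these functions and used no expression value, although earlier results of these data were known when it was made. A probe cluster, the set of array probes that reports one gene, carried a single gene symbol for 45 of the 46 genes, and Gdf15 was not analysed here. These 45 genes are compared with the 19938 genes that the table measured in all.

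Neuro2a is a murine neuroblastoma line, and the labels give AJ as its background strain. The anchorage dependent (AD) cells were grown attached to plastic in DMEM with 10% fetal bovine serum. The anchorage independent (AI) cells formed floating tumorspheres in a medium made for neural stem cells, which had no serum. To this were added its proliferation supplements, heparin (2 µg/ml) and the growth factors EGF, at 20 ng/ml, and bFGF, at 10 ng/ml. The labels name no introduced gene and no drug in either group. Each phenotype was represented by 4 whole-transcript arrays. The labels call these biological replicates, whereas the methods speak of replicate hybridizations, so the p-values measure the spread between arrays, which may in part be technical. Detachment, loss of serum, change of base medium, supplements, heparin and added growth factors came together and cannot be told apart. Both groups came from this 1 cell line.

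All levels below are the normalized log2 signals of the deposited table, and a log2 ratio is the AD mean minus the AI mean, so that a positive ratio means more signal in AD cells. A gene was called when limma's moderated test gave a Benjamini-Hochberg adjusted p under 0.05 and the difference reached 1.5-fold. The median signal of the AD arrays lay between 5.82 and 5.92 and that of the AI arrays between 5.92 and 5.99, and a gene below the median of every array is termed dim, since much of such a signal may be background. Neuroblastoma markers were well above these medians: the mean of the 13 measured markers was 9.60 to 9.76 in the AD arrays and 9.06 to 9.16 in the AI arrays, none was dim, and 4, Dbh, Mycn, Phox2a and Th, were called higher in AD. At limma adjusted p under 0.05 without the fold, 8 of the 13 were higher in AD and 1, Chgb, was lower (log2 ratio -0.49). The part of these marker differences in the results below was not tested. Of the markers of other cell types, 5 of 7 for fibroblasts, 5 of 5 for macrophages and 3 of 4 for endothelial cells were dim, and none was called. Their mean levels ranged from 5.34 to 5.45 in AD and 5.34 to 5.40 in AI for fibroblasts, from 4.97 to 5.12 and 5.05 to 5.14 for macrophages, and from 5.43 to 5.62 and 5.53 to 5.65 for endothelial cells. The endothelial marker that was not dim, Pecam1, lay above the array medians, at 6.61 to 7.15 in AD and 6.80 to 7.11 in AI. Since RNA was taken from whole cultures, fewer cells of a type and less RNA per cell cannot be told apart.

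TGFβ family ligands are dimers that are secreted together with a propeptide. TGFβ itself stays latent until it is freed from that propeptide and from the latent TGFβ binding proteins of the matrix, and the convertase furin cuts the precursors. A free ligand joins type II and type I receptor kinases, and the type I receptor then phosphorylates receptor Smads, which enter the nucleus with Smad4. TGFβ, activin and Nodal act mainly through Smad2 and Smad3, and bone morphogenetic proteins (BMPs) through Smad1, Smad5 and Smad9. In the sympathetic lineage, from which neuroblastoma arises, BMP signals help to set up the noradrenergic program.

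Most of the family differed by less than 1.5-fold between the phenotypes, and each functional class held at least 1 gene that was called. Of the 45 measured genes, 5 were called higher in AD cells and 2 were called lower, while 38 were not called. Follistatin (Fst), Furin, Skil, Tgfb3 and Bmpr1b were higher in AD, and Tgfbr3 and Inha were higher in AI. Among all genes measured, 2.02% were called higher and 2.4% were called lower, against 11.1% and 4.44% of the family. Without the requirement of 1.5-fold, 11 genes of the family were higher in AD and 6 were lower at limma's adjusted p under 0.05, which is 24.4% and 13.3% of the family against 11% and 10.7% of all genes. The AD and AI arrays did not overlap for 15 genes that were higher in AD and 8 that were lower (33.3% and 17.8% of the family), where 13.6% and 13.2% of all genes showed no overlap in these directions. Such separation of 4 arrays from 4 fixes the p of the exact two-sided permutation test at 0.0286, the smallest value it can give. For these 23 genes that p therefore adds nothing to the counts. In the family, 34 of 45 ratios were above 0 and the median log2 ratio was 0.09, against 0.01 for all genes. The 17 dim genes included none that was called, but 14 of them had ratios above 0, against 20 of the other 28. Without AD replicate 4, 30 of the 45 ratios were above 0, where 50.6% of all genes were.

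**Figure D1:**
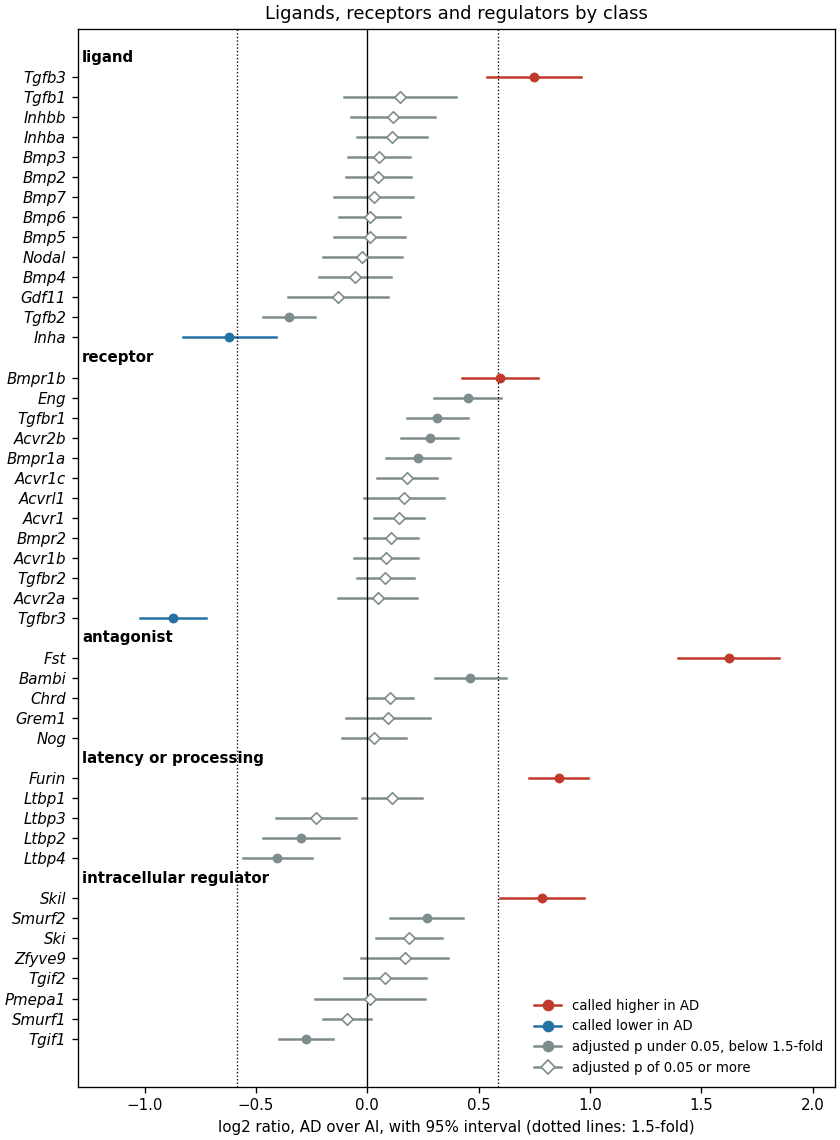
Log2 ratio of AD over AI for each of the 45 measured genes, grouped by function. Points are ratios, horizontal lines are 95% intervals of the limma fit with 4 arrays a group, open diamonds did not pass the test, and the dotted lines mark 1.5-fold. The points of the 7 called genes (red higher, blue lower in AD) lie past the dotted lines, and the 6 BMP ligands lie within 0.06 of 0.

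The plot of ratios by class shows that the called genes were spread out, with 2 ligands, 2 receptors and 1 gene in each of the other classes. A further 10 genes passed the test below 1.5-fold, and the single genes are described below by their role.

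The proximal promoters of 3 called genes are printed because they show whether the letters bound by the Smad proteins of this pathway lie at the starts of genes that differed. RefSeq (GRCm38.p6) gave windows from 250 bases before to 50 bases after a start for Inha, Furin and Bmpr1b, and for 35 genes of the family in all. Capitals mark CAGAC or its complement GTCTG, a short element bound by Smads, and GGCGCC, a palindrome reported in BMP-responsive elements. Each sequence is given 5′ to 3′ on the strand of the gene, and both strands were searched. The Inha window is chr1:75507359-75507658, plus strand, and the first Bmpr1b window is chr3:141982215-141982514, minus strand. The windows of the first and the second Furin start are chr7:80405387-80405686 and chr7:80402763-80403062, minus strand.
Inha: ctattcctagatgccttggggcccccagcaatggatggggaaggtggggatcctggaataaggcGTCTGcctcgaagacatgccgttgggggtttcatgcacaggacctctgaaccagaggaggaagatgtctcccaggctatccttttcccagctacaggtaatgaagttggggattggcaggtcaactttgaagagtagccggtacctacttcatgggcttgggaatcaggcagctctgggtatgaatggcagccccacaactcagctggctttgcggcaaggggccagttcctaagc
Bmpr1b, first start: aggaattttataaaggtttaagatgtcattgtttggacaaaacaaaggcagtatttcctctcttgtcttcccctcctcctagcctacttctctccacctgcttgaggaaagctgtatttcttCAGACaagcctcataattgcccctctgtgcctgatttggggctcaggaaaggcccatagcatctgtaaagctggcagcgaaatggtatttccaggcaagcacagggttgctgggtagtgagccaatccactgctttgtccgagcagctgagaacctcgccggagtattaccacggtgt
Furin, first start: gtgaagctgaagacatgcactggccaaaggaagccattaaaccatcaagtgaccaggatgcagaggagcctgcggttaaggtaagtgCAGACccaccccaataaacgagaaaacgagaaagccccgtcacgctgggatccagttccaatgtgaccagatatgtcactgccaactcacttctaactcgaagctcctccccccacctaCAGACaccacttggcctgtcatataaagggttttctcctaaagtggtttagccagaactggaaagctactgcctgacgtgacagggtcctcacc
Furin, second start: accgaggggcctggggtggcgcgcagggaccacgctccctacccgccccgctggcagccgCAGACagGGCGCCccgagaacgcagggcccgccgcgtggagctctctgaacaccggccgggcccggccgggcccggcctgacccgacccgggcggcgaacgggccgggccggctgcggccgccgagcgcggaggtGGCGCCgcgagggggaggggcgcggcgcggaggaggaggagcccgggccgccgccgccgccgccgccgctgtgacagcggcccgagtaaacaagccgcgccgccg

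Inha, higher in AI, held 1 CAGAC on the minus strand 186 bases before its listed start, and Bmpr1b, higher in AD, held 1 on the plus strand 128 bases before the first of the 3 starts in the promoter table. Both of these starts lie inside the RefSeq span of their gene, downstream of its outermost 5′ end, so these windows show internal starts and the sites lie within the gene spans. The second Bmpr1b start, not printed, had CAGAC on the minus strand 245 bases before it, and the third had no match. The first Furin window held CAGAC at 163 and 44 bases before the start. The second, with a GC content of 82.3%, held CAGAC at 190 bases and GGCGCC at 183 and 55 bases before the start. This second Furin start also lies inside the RefSeq span of its gene. Over all 32851 promoters of this length, 49.6% held CAGAC and 11.9% held GGCGCC. Of the 48 promoters of the family, 26 held the first and 11 the second. Genes that differed in opposite directions thus held the same short and common motif, and a match of letters describes the window and not binding.

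The TGFβ isoforms differed from each other. Tgfb3 and Tgfb2 encode related ligands that bind the same receptors, but TGFβ2 depends more on the co-receptor betaglycan, the product of Tgfbr3, for binding. Tgfb3 (chr12:86056743-86079041) measured 7.50, 7.75, 7.63 and 7.39 in AD replicates 1 to 4 and 6.89, 6.95, 6.80 and 6.64 in AI replicates 1 to 4. All AD arrays lay above all AI arrays. The means were 7.57 ± 0.16 and 6.82 ± 0.14 (SD, n = 4 each), a log2 ratio of 0.75 ± 0.09 (SE) or 1.68-fold (limma adjusted p = 0.000745). Tgfb2 went the other way by a smaller step, with 8.95, 9.08, 9.07 and 9.09 in AD and 9.42, 9.41, 9.38 and 9.38 in AI. Its log2 ratio was -0.35 ± 0.05 (SE), 1.28-fold higher in AI (limma adjusted p = 0.00179), below the fold required for a call. Tgfb1, the most widely expressed isoform in most tissues, measured 8.05 to 8.53 in AD and 7.92 to 8.21 in AI. The groups overlapped, and the log2 ratio of 0.15 had a 95% interval from -0.11 to 0.40 (limma adjusted p = 0.438).

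The opposite steps of the isoforms can be read within each array, where a scaling shared by all probes of an array cancels. The Tgfb3 signal minus the Tgfb2 signal ran from -1.69 to -1.33 in the AD arrays and from -2.74 to -2.46 in the AI arrays. The difference moved by 1.10 on the log2 scale between phenotypes. Its absolute size carries no meaning, because probes of different genes differ in brightness, and the pair was chosen after the values were seen.

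Activins and inhibins share β subunits, and the α subunit encoded by Inha turns an activin into an inhibin, which competes for activin receptors with betaglycan as co-receptor. Inha (chr1:75507077-75510366) measured 5.61, 5.81, 5.75 and 5.48 in AD and 6.14, 6.27, 6.24 and 6.47 in AI. The AD signals lay below the median of every AD array, so the size of the ratio is uncertain. The means were 5.66 ± 0.15 and 6.28 ± 0.14 (SD, n = 4 each), a log2 ratio of -0.62 ± 0.09 (SE) or 1.54-fold higher in AI (limma adjusted p = 0.00197). The call was lost, with the same direction, after quantile normalization (log2 ratio -0.55), median centring (-0.54), array weights (-0.56), and without AD replicate 4 (-0.56) or AI replicate 4 (-0.56). The β subunits were dim and did not pass the test, with log2 ratios of 0.11 for Inhba and 0.12 for Inhbb. No difference in either β subunit was detectable at these signals.

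The 6 BMP ligands lay below the median of every array. The log2 ratios of Bmp2, Bmp3, Bmp4, Bmp5, Bmp6 and Bmp7 were 0.05, 0.05, -0.06, 0.01, 0.01 and 0.03, none passed the test, and the ratio of Bmp4 turned positive with median centring. A difference in them was not detectable at these signals. Nodal, an embryonic ligand that uses activin receptors, was also dim, with a log2 ratio of -0.02 that turned positive with quantile normalization or median centring. Gdf11, a ligand related to myostatin that acts through activin receptors, lay above the median of every array and measured 7.41 to 7.73 in AD and 7.59 to 7.97 in AI. Its log2 ratio was -0.13, with a 95% interval from -0.35 to 0.09 (limma adjusted p = 0.429).

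The receptors as a class leaned to the AD phenotype by small steps. Of 13 receptor genes, 12 had a ratio above 0, with a median log2 ratio of 0.16, where 54.2% of all genes had a ratio above 0. Quantile normalization gave the same count of 12 receptors, but without AD replicate 2 the ratio of Acvr2a turned to -0.018. The test was passed by 5 receptors higher in AD and by 1 lower, and with all arrays all 7 type I and all 4 type II receptors had ratios above 0. Most of these steps were below 1.5-fold, and 1 receptor in each direction was called.

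Bmpr1b, a type I receptor for BMPs and related growth and differentiation factors, was the called receptor that was higher in AD. It lies at chr3:141837135-142169585 and measured 6.14, 6.30, 6.06 and 5.99 in AD and 5.54, 5.63, 5.47 and 5.47 in AI. The groups did not overlap, and the AI signals lay below the median of every AI array. The means were 6.12 ± 0.13 and 5.53 ± 0.07 (SD, n = 4 each), a log2 ratio of 0.60 ± 0.08 (SE) or 1.51-fold (limma adjusted p = 0.000791). This is close to the required fold, and the call was lost without AD replicate 2 (0.54), AI replicate 3 (0.58) or AI replicate 4 (0.58). The related Bmpr1a had a log2 ratio of 0.23 (limma adjusted p = 0.0375), below 1.5-fold.

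Among the receptors for TGFβ and activin, Tgfbr1, the type I receptor of TGFβ also called ALK5, passed the test at a small fold. It measured 10.00, 9.97, 9.89 and 9.77 in AD and 9.59, 9.60, 9.57 and 9.60 in AI, a log2 ratio of 0.32 ± 0.06 (SE) or 1.24-fold (limma adjusted p = 0.00721). The AI arrays were tightly grouped and all lay below the AD arrays. Tgfbr2, which encodes the type II receptor that TGFβ requires, was dim, at 5.22 to 5.38 in AD and 5.17 to 5.28 in AI. Its log2 ratio was 0.08, with a 95% interval from -0.05 to 0.21. Acvr2b, a type II receptor for activins, measured 6.35, 6.46, 6.43 and 6.38 in AD and 6.19, 6.19, 6.08 and 6.05 in AI, 1.21-fold higher in AD (limma adjusted p = 0.00879).

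The other receptor kinases did not pass the test. Their log2 ratios were 0.14 for Acvr1, 0.08 for Acvr1b, 0.18 for the dim Acvr1c, 0.16 for Acvrl1, 0.05 for Acvr2a and 0.11 for Bmpr2. For Acvr1 and Acvr1c the AD arrays lay above the AI arrays without overlap, at limma adjusted p of 0.0822 and 0.0689.

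The co-receptors went in opposite directions. Betaglycan and endoglin, encoded by Tgfbr3 and Eng, are related membrane proteins that present ligands to the signaling receptors and lack a kinase of their own. Tgfbr3 (chr5:107106567-107289629) measured 5.82, 5.80, 5.78 and 5.95 in AD and 6.82, 6.59, 6.75 and 6.69 in AI. The groups were separated by more than their whole ranges. The AD signals lay close to the array medians, and in AD replicates 1, 2 and 3 they lay below them. The size of the Tgfbr3 ratio, and of the shift against Eng below, is therefore uncertain. The means were 5.84 ± 0.08 and 6.71 ± 0.10 (SD, n = 4 each), a log2 ratio of -0.87 ± 0.07 (SE), so that AI was 1.83-fold higher (limma adjusted p = 5.12e-05). Eng measured 8.73, 8.91, 8.74 and 8.61 in AD and 8.29, 8.33, 8.31 and 8.26 in AI, again without overlap. Its log2 ratio was 0.45 ± 0.07 (SE), 1.37-fold higher in AD (limma adjusted p = 0.00187). Within arrays, the Eng signal minus the Tgfbr3 signal ran from 2.66 to 3.11 in AD and from 1.47 to 1.73 in AI, a shift of 1.32 on the log2 scale for a pair chosen after the values were seen.

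**Figure D2:**
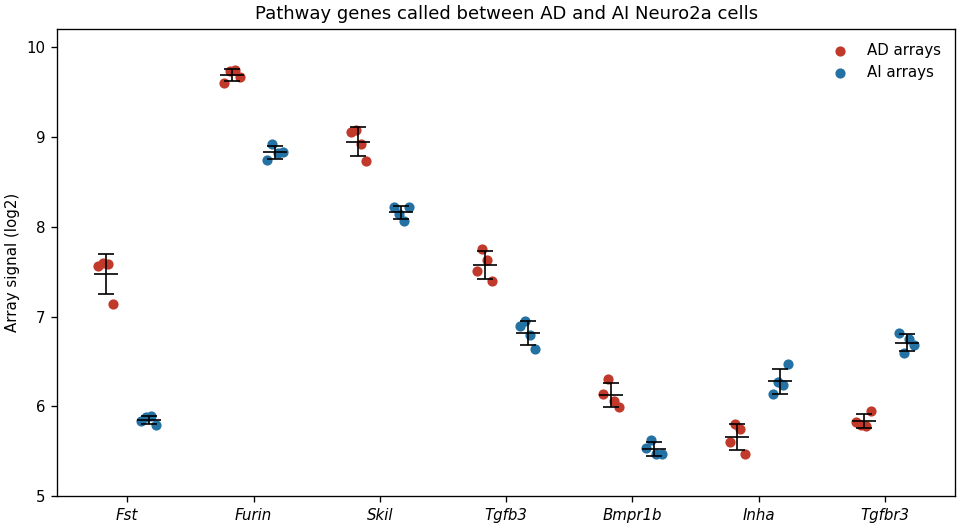
Log2 signal of the 7 called genes in each of the 4 AD and 4 AI arrays, with the mean and standard deviation of each group. The groups do not overlap for any of the 7 genes, and for Fst AD replicate 4, at 7.14, lies apart from the other AD arrays at 7.57 to 7.60.

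Follistatin gave the largest difference of the 45 genes. Fst encodes a secreted protein that binds activins nearly irreversibly and also binds some BMPs and myostatin-like ligands. It lies at chr13:114452262-114458989 and measured 7.57, 7.60, 7.58 and 7.14 in AD and 5.83, 5.88, 5.89 and 5.79 in AI. The AI signals lay below the median of every AI array. The means were 7.47 ± 0.22 and 5.85 ± 0.05 (SD, n = 4 each), a log2 ratio of 1.62 with a 95% interval from 1.40 to 1.85, or 3.08-fold (limma adjusted p = 1.69e-05). Without AD replicate 4, the lowest AD array for this gene, the log2 ratio was 1.73. It was the only gene of the family past 2-fold.

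The second antagonist that passed the test was Bambi, which encodes a membrane protein that resembles a type I receptor without a kinase and dampens TGFβ family signals. It measured 7.96, 8.11, 8.10 and 8.10 in AD and 7.60, 7.73, 7.64 and 7.45 in AI. The log2 ratio was 0.46 ± 0.07 (SE) or 1.38-fold higher in AD (limma adjusted p = 0.00207). The secreted BMP antagonists Nog, Chrd and Grem1 were dim in all arrays, with log2 ratios of 0.03, 0.10 and 0.09 that did not pass the test.

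The genes of latency and processing were divided between the convertase and the matrix binding proteins. Furin, a convertase of the secretory pathway that cleaves the precursors of TGFβ and of many other proteins, was higher in AD. Furin (chr7:80389194-80405441) measured 9.60, 9.73, 9.74 and 9.67 in AD and 8.74, 8.92, 8.82 and 8.83 in AI. The means were 9.69 ± 0.07 and 8.83 ± 0.07 (SD, n = 4 each), a log2 ratio of 0.86 ± 0.06 (SE) or 1.81-fold (limma adjusted p = 2.88e-05). The spread within groups was small beside the difference, and leaving out any 1 array gave ratios from 0.83 to 0.89. This is the gene whose second start, printed above, held both motifs.

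The latent TGFβ binding proteins anchor the latent complex to the matrix, except that Ltbp2 does not bind latent TGFβ. Ltbp4 measured 9.24, 9.32, 9.31 and 9.49 in AD and 9.68, 9.79, 9.83 and 9.67 in AI. It was 1.32-fold higher in AI, with a log2 ratio of -0.40 ± 0.07 (SE, limma adjusted p = 0.00383). Ltbp2 was dim, at 5.20, 5.21, 5.23 and 5.10 in AD and 5.46, 5.54, 5.30 and 5.63 in AI, with a log2 ratio of -0.30 (limma adjusted p = 0.0254). Ltbp3 had a log2 ratio of -0.23 without overlap of the groups but missed the threshold (limma adjusted p = 0.0764), and the dim Ltbp1 had a ratio of 0.11. Within arrays, the Furin signal minus the Ltbp4 signal ran from 0.18 to 0.43 in AD and from -1.01 to -0.84 in AI, a shift of 1.26 for a pair also chosen after the values were seen.

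Inside the cell, the Smad corepressors differed from one another. Skil, which encodes SnoN, binds Smads at target genes and holds back their transcription, and the gene is itself a known target of TGFβ. Skil (chr3:31095058-31122923) measured 9.06, 9.08, 8.91 and 8.73 in AD and 8.22, 8.14, 8.07 and 8.22 in AI. The means were 8.94 ± 0.16 and 8.16 ± 0.07 (SD, n = 4 each), a log2 ratio of 0.78 ± 0.08 (SE) or 1.72-fold higher in AD (limma adjusted p = 0.000324). AD replicate 4 was again the lowest AD array, and without it the log2 ratio was 0.86. Its relative Ski had a log2 ratio of 0.19 (limma adjusted p = 0.0835), with AD replicate 4 and AI replicate 4 both at 8.52 after rounding.

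Tgif1, a homeodomain corepressor of Smad2 and Smad3, went the other way. It measured 8.71, 8.64, 8.62 and 8.56 in AD and 8.88, 8.89, 8.97 and 8.89 in AI, 1.21-fold higher in AI (log2 ratio -0.28, limma adjusted p = 0.00717). Tgif2 had a log2 ratio of 0.08 and did not pass the test. The Skil signal minus the Tgif1 signal ran from 0.17 to 0.44 in AD and from -0.91 to -0.67 in AI, a shift of 1.06 on the log2 scale, in a pair chosen after the values were seen.

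The ubiquitin ligases Smurf1 and Smurf2, which target Smads and receptors for degradation, differed little. Smurf2 had a log2 ratio of 0.27 (limma adjusted p = 0.0345), and its second probe cluster gave 0.29 (limma adjusted p = 0.0642), so neither was called and the first alone passed the test. Smurf1 had a log2 ratio of -0.09. Zfyve9, which encodes the anchor protein SARA that presents Smads to the receptor, had a ratio of 0.17. The dim Pmepa1, which encodes a membrane protein that sequesters receptor Smads, had a ratio of 0.01. None of these 3 passed the test.

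**Figure D3:**
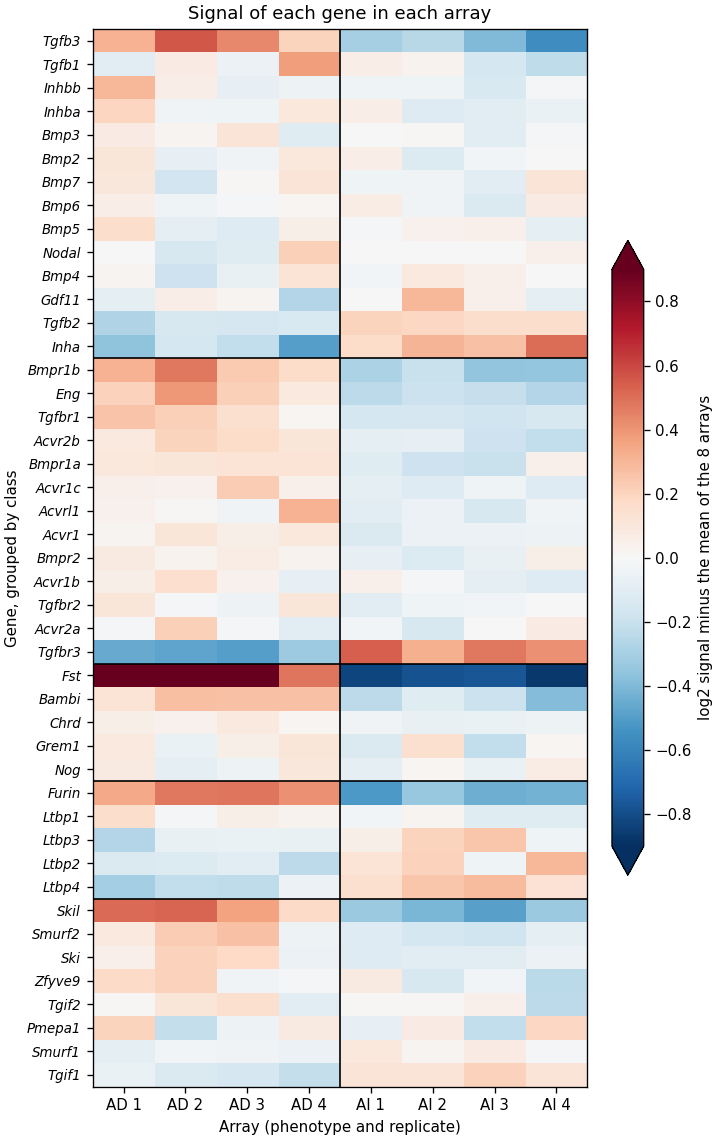
Log2 signal of each of the 45 measured genes in each array, as the difference from the mean of that gene over the 8 arrays. Rows are genes grouped by function and columns are the AD and AI arrays, and Fst, Furin, Skil, Tgfb3 and Bmpr1b show higher AD arrays while Tgfbr3 and Inha show higher AI arrays. The color scale ends at 0.9, which the differences of Fst exceed in 3 AD arrays.

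The heat map of deviations also shows how the arrays of a group varied. AI replicate 4 was the lowest AI array for 15 of the 45 genes and the highest for 17. AD replicate 4 was the lowest AD array for 18 of the 45 genes and the highest for 11. AD replicate 4 also had the lowest weight, 0.350, when arrays were weighted by their agreement with the fit. Without this array 5 genes were called higher and 1 was called lower, Inha having lost its call. Its part in the other results was not tested further than by leaving it out.

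The other genes of the pathway were counted in lists that were drawn up by function. Results for Smad and Id genes were known when the lists were made, so these counts are not independent evidence. Of 8 Smad genes, 4 were called higher in AD and none lower, with a median log2 ratio of 0.64. The largest log2 ratios were 1.58 for Smad9, a BMP receptor Smad, and 1.38 and 1.26 for Smad6 and Smad7, the inhibitory Smads. Smad3, the receptor Smad of TGFβ and activin, had a ratio of 1.11. The other 4 were not called. Among them, the BMP receptor Smads Smad1 and Smad5 had ratios of -0.23 (limma adjusted p = 0.028) and -0.01. For comparison, the called fractions of all genes were those given above.

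Transcripts that BMPs are known to induce and those that TGFβ is known to induce gave different counts. Of 14 BMP-induced genes, 7 were called higher in AD and none lower, against 2.02% and 2.4% of all genes. The median log2 ratio of this list was 0.83, and 4 of the 14 genes were dim. A filter that dropped the 40% of clusters with the lowest mean signal gave a median of 1.32 over 10 genes. Id2, Id3 and Atoh8, which encode helix-loop-helix factors, had log2 ratios of 4.39, 2.25 and 1.78, and Id1 had 1.19. The AI signals of Id2, Id3, Atoh8 and Smad6 lay below the median of every AI array, so the sizes of their ratios are uncertain. Smad6, Smad7 and Smad9 are in this list as well as among the Smads. Of 19 measured TGFβ-induced genes, 1 was called higher (Smad7) and 4 were called lower. The median log2 ratio of the 19 was 0.00 against 0.01 for all genes, and 6 of them were dim. With the same filter on signal the median was -0.07 over 14 genes. Those lower in AD were Acta2, smooth muscle actin, at -1.69, Ccn1, a matricellular protein, at -1.65, Tgfbi, a secreted matrix protein, at -0.98, and Fn1, fibronectin, at -0.68. These genes also answer to signals other than TGFβ and BMP, and the difference between the lists was not tested. Skil, described above as a TGFβ target and called higher in AD at 0.78, was counted in the family and not in the TGFβ list. The count of TGFβ-induced genes higher in AD therefore does not cover every known target.

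Matrix genes that hold or activate latent TGFβ were lower in AD where they differed. The 19 measured genes had a median log2 ratio of 0.00, but 9 of them were dim. With the filter on signal the median was -0.15 over 10 genes. Of them, 3 were called lower and none higher, against 2.4% and 2.02% of all genes. They were Mmp9, a gelatinase that can release latent TGFβ, at -1.02, Itgb3, an integrin β subunit that can bind it, at -0.77, and Fn1, already given. Of 24 further extracellular modulators, against the same shares of all genes, 2 were called lower and none higher, with a median of 0.00. These were Bgn, which encodes the proteoglycan biglycan, at -1.84, and Rgmb, which encodes a BMP co-receptor, at -0.84. The AD signals of Bgn lay below the median of every AD array. Of the 24 modulators 13 were dim, and the filter on signal gave a median of -0.16 over the 13 genes it kept.

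Among 17 further ligands of the superfamily 16 were dim and none was called, with a median log2 ratio of 0.00. Among 20 further intracellular regulators none was called, with a median of 0.06, although 6 were higher and 2 lower at adjusted p under 0.05 without the fold. Since 2.02% and 2.4% of all genes were called, counts of 0 in lists of this size are close to the background.

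**Figure D4:**
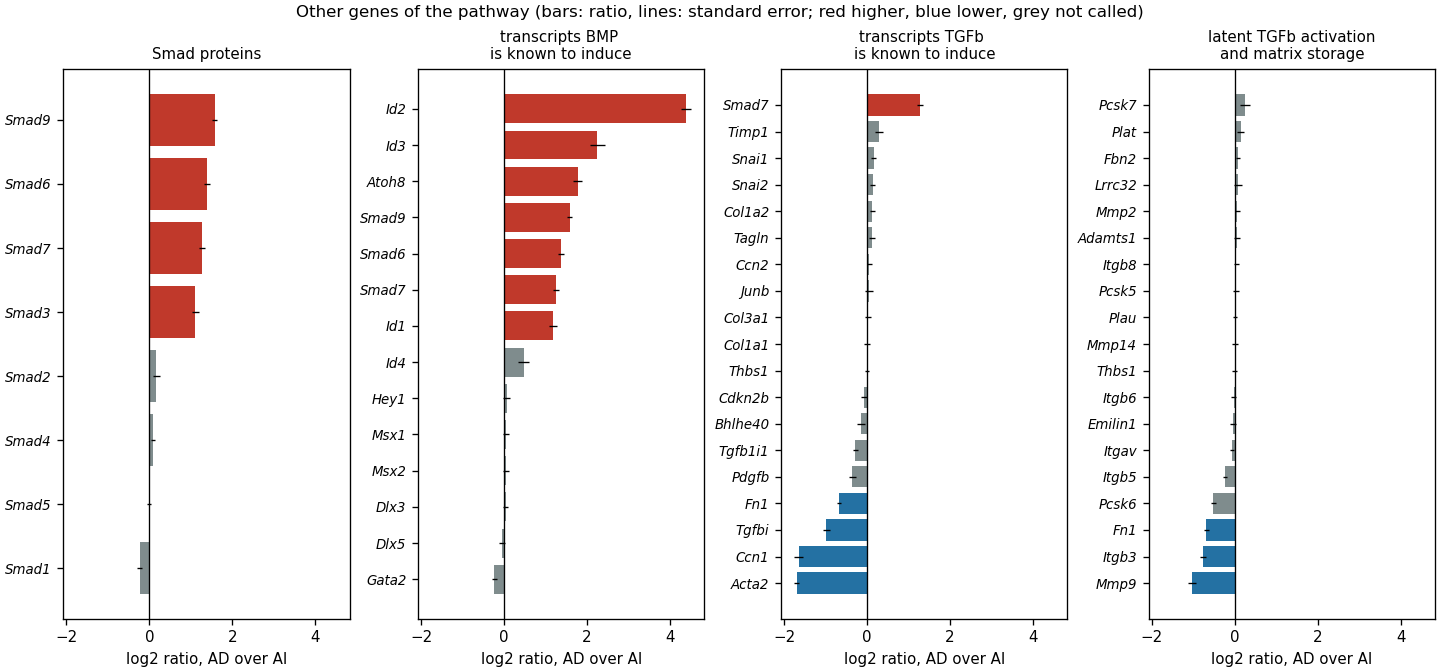
Log2 ratio of AD over AI for each measured gene in 4 lists of the pathway, with standard errors of the limma fit (4 arrays a group). Red bars are called higher in AD, blue bars called lower and grey bars not called, and the ratios run from 4.39 for Id2 to -1.69 for Acta2.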

How the data were processed

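Total RNA of AD and AI Neuro2a cells was hybridized to mouse whole-transcript arrays, 4 for each phenotype. The authors deposited 1 table of normalized log2 signals, 1 value per probe cluster and array. Per the labels the values were made with GCRMA, and the submitters' processing notes name Partek 6.5. Scale and direction were checked from the values, and scanner files were not analysed here. No read depth applies to arrays, and their number limits the precision.

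All 35556 clusters were fitted with limma 3.58.1 (lmFit and eBayes, R 4.3.3) on phenotype alone, without a filter, with Benjamini-Hochberg adjustment over all clusters. Symbols came from the platform annotation, and the brightest cluster with a single symbol stood for each of 19938 genes. Exact permutation tests used scipy 1.17.1. A called gene had an adjusted p under 0.05 and at least 1.5-fold. The members and lists were chosen with earlier results of these data known. By rule, every measured member was named, and called members and up to 8 further members past the test with the largest changes were given array by array. Of each list, up to 3 called genes a direction were named. Id1, Smad1, Smad3, Smad5, members of another list (Fn1 and the Smads), 4 called neuroblastoma markers and Chgb were added. Other clusters of a member were given where they disagreed. Pairs set against each other within arrays were chosen after their values were seen. A further pair, Bmpr1b minus Bmpr1a, was computed and moved by only 0.37 on the log2 scale between phenotypes. Promoters and gene coordinates are RefSeq's (GRCm38.p6), the promoters matched by symbol and the coordinates by Entrez gene identifier. The smallest exact p for 4 against 4 arrays is 0.0286. The fit was tested on simulated data. The alternatives were quantile normalization, median centring, array weights, a filter on dim clusters, the methods' own unmoderated test, other thresholds, a replicate block and leaving out each array.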

Additional observations from a re-analysis of the deposited data

Results flagged for a closer look

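Single arrays stood apart from the other arrays of their group in 9 of the 90 gene and group combinations of the family, by the gap to the nearest array as a share of the range. Chance gives about 1 in 20 such cases. In the AD arrays, Fst was 7.142 in replicate 4 where the others were 7.57 to 7.60. Replicate 1 was low for Tgfb2 (8.9519, others 9.07 to 9.09), Bambi (7.9626, others 8.10 to 8.11) and Ltbp3 (7.5771, others 7.77 to 7.78). Acvr1c was 5.2095 in AD replicate 3, where the others were 5.02 to 5.03. In the AI arrays, Nodal was 5.4919 in replicate 4 (others all 5.45), Tgif2 was 6.1739 in replicate 4 (others 6.42 to 6.46), Acvr1 was 7.6822 in replicate 1 (others 7.76 to 7.77) and Tgif1 was 8.9744 in replicate 3 (others 8.88 to 8.89). Except for Nodal and Tgif2, whose groups overlapped, the array that stood apart did not reach the range of the other group.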

How the results depend on the processing

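The log2 ratios of single genes were recomputed 707 times, with other processing or with arrays left out but at the same thresholds. Of these, 679 kept their direction and side of the threshold, 8 lost the call and 20 changed sign. The number of family genes called lower fell from 2 to 1 with quantile normalization, median centring and array weights. At 2-fold, 1 gene was called higher and 0 lower, and 254 of all clusters were called against 1396 at 1.5-fold. Leaving out 1 array at a time gave 4 to 5 genes called higher, 1 to 2 called lower, 14 to 17 past the test at any fold (17 with all arrays), and 1217 to 1636 of all clusters called. Median centring and array weights each gave 19 past the test at any fold. Signs changed in uncalled genes near 0. With quantile normalization Nodal had a log2 ratio of 0.017, with median centring Nodal had 0.053 and Bmp4 0.021, and with array weights Bmp5 had -0.0057. Leaving out 1 array gave ranges of -0.041 to 0.049 for Bmp5, -0.031 to 0.037 for Bmp6, -0.0057 to 0.090 for Bmp7, -0.057 to 0.087 for Pmepa1, -0.099 to 0.020 for Nodal, -0.018 to 0.087 for Acvr2a and -0.00014 to 0.063 for Nog. The cause was not tested. Replicate numbers did not pair the samples: same-numbered arrays had correlations of their deviations from -0.17 to 0.08. With the replicate number as a block, 5 genes were called higher, 2 lower, 14 passed the test at any fold and 1352 clusters were called. The median over all clusters moved from -0.00 to 0.02 with quantile normalization and to 0.08 with median centring, where 73.0% of all genes and 36 of the 45 family genes had ratios above 0. Genes near background, 17 of the 45, limit what these arrays can show.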
